A study of Rattus norvegicus with 36 samples.

Results

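The miR-181 family of the rat aorta consists of miR-181a-5p, miR-181b-5p, miR-181c-5p and miR-181d-5p, 4 of the 835 microRNA names in a small RNA sequencing table of the descending thoracic aorta. The members were taken by name, and earlier results of these data were known when the family was chosen. All 4 passed the filter on low values that left 484 names for testing. The animals were male rats of the Dahl salt-sensitive strain (SS) and of 2 congenic strains on the SS background, which carry Brown Norway sequence on chromosome 2, in its distal portion in S2Ba and in its middle segment in S2Bb. From 4 to 6 weeks of age until 12 to 13 weeks, rats of each strain ate either normal salt (NSD) or high salt (HSD, with 4% NaCl). The groups analysed had 5 libraries for SS, 5 for S2Ba and 6 for S2Bb on each diet, 32 in all, without the pair of columns that hold identical values under an SS and an S2Ba label. A congenic segment holds many genes, so a strain difference cannot be assigned to 1 of them, and a whole piece of aorta mixes the cell types of the vessel wall.

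MicroRNAs bind messenger RNAs mainly through their seed, the bases next to the 5′ end, and lower the stability and translation of those messages, so microRNAs that share a seed can share targets. In endothelial cells of mouse and human, miR-181b is known to target importin-alpha3 (Kpna4), which carries NF-kB into the nucleus, and so to limit adhesion molecules such as Vcam1. In mouse aorta miR-181b has also been tied to Timp3 and elastin, miR-181a is best known for tuning T cell receptor signalling in mouse lymphocytes, miR-181c was described in mitochondria of rat heart muscle cells, and miR-181d targets MGMT in human glioma.

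The mature sequences are shown because they define the family and bear on how far its members can be told apart. All 4 members were matched to RefSeq entries on the GRCr8 assembly, and they are written 5′ to 3′ with the seed, bases 2 to 8, in capitals.
miR-181a-5p: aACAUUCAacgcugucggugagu
miR-181b-5p: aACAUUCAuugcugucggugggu
miR-181c-5p: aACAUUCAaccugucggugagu
miR-181d-5p: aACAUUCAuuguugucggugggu

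The seed ACAUUCA occurred in 4 of the 693 mature rat names of the reference, and these were the 4 members. Counted from 1 at the 5′ end, miR-181a-5p differs from miR-181b-5p by the substitutions A9U, C10U and A21G, and miR-181b-5p differs from miR-181d-5p by C12U alone. miR-181c-5p has the first 10 and the last 12 bases of miR-181a-5p and lacks the base at position 11. How reads were shared between sequences this close is unknown from the sources at hand, and its part in the levels below was not tested.

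The family comes from 6 hairpins in 3 clusters, none of them on chromosome 2, where the congenic segments lie. On chromosome 13 Mir181a-1 and Mir181b1 lie 61 bp apart, and miR-181a-5p was found there at chr13:52037081-52037103 and miR-181b-5p at chr13:52037263-52037285, both on the plus strand. On chromosome 3 Mir181a2 and Mir181b2 lie 986 bp apart, and a second identical copy of miR-181a-5p is at chr3:43025601-43025623 on the plus strand, so its level sums both loci. The Mir181b2 hairpin holds the identical sequence of miR-181b-5p, so the level of miR-181b-5p sums both loci too. On chromosome 19 Mir181c and Mir181d lie 77 bp apart, with miR-181c-5p at chr19:40888314-40888335 and miR-181d-5p at chr19:40888484-40888506, again on the plus strand. The Mir181c hairpin, at chr19:40888291-40888396 on the plus strand, is shown because both of its arms were measured, with the 5p arm and the 3p arm in capitals.
Mir181c: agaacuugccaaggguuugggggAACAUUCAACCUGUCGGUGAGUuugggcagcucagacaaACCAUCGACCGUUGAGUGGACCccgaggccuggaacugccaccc

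Each level is a normalized read number per M reads (nRPM, M for mega), as deposited by the authors. The libraries held 2.31 to 42.4 M recovered reads (median 19.4 M), and 3 reads were worth 0.0769 to 0.941 nRPM. The thinnest coverage of any member was 252 reads of miR-181d-5p in SS high-salt replicate 2, whose 79.0 nRPM has an exact Poisson 95% interval of 69.6 to 89.4, covering counting error only. That library was the shallowest and stood apart, with 38263 nRPM of miR-181a-5p against 12721 to 25679 in the 31 others and with the highest level of each of the 4 members. SS high-salt means are therefore also given without it. The animal numbers in the labels go with diet in SS and S2Ba, so diet and the order of the numbers cannot be told apart there. On normal salt every S2Bb number is lower than those of SS and S2Ba. Comparisons of S2Bb with either strain on that diet therefore cannot separate strain from the order of the numbers. The labels do not say whether animals were housed or processed separately. In the main fit a p-value sets a group difference against the spread between libraries within groups, estimated over all 6 groups.

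The members differed widely in abundance. miR-181a-5p averaged 19696 nRPM over the 32 libraries, 1.93% of the normalized signal, and ranked 7 of 835 names. miR-181b-5p averaged 1359 nRPM at rank 35, miR-181c-5p 401 nRPM at rank 58 and miR-181d-5p 49.1 nRPM at rank 111. The 4 mature lengths are 22 or 23 bases, so these levels need no correction for length, although ligation during library preparation is known to favour some small RNAs over others.

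**Figure D1:**
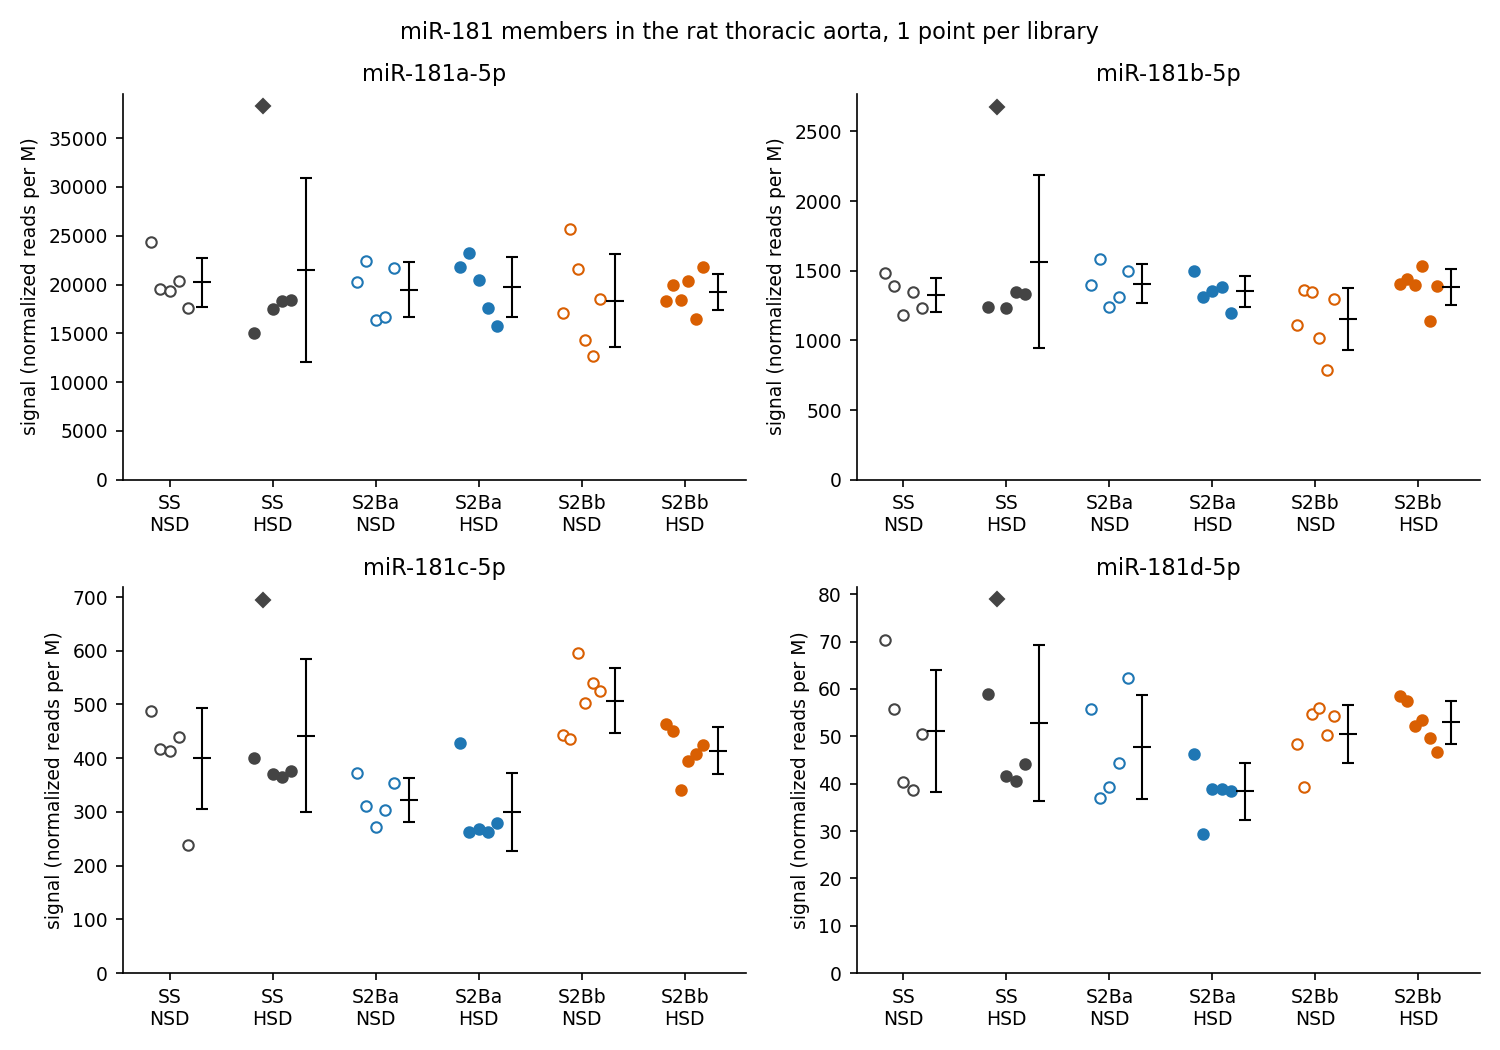
Levels of the 4 members in normalized reads per M reads (vertical axes, each from 0) in the 32 libraries by strain and diet, with mean ± SD beside the points; open symbols are normal salt, filled symbols high salt, and the diamond is SS high-salt replicate 2. The 6 S2Bb normal-salt libraries lie above all 5 S2Ba normal-salt libraries for miR-181c-5p, while the groups of miR-181a-5p and miR-181b-5p overlap.

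miR-181a-5p was at similar levels in all groups. On normal salt the SS libraries held 24377, 19523, 19309, 20318 and 17627 nRPM, and the S2Ba libraries 20278, 22403, 16395, 16649 and 21706 nRPM. The 6 S2Bb libraries ran from 12721 over a median of 17806 to 25679 nRPM. The S2Bb normal-salt group contained both the lowest library of the series and the second highest level of this microRNA. On high salt the SS libraries held 15073, 38263, 17452, 18327 and 18363 nRPM, and the S2Ba libraries 21844, 23241, 20452, 17596 and 15771 nRPM. The S2Bb high-salt libraries ran from 16455 over a median of 19219 to 21780 nRPM. Group means lay between 18325 ± 4763 (SD, n = 6) in S2Bb on normal salt and 21496 ± 9468 (SD, n = 5) in SS on high salt, and the latter became 17304 ± 1546 (SD, n = 4) without replicate 2. The order of the group means was S2Bb NSD, S2Bb HSD, S2Ba NSD, S2Ba HSD, SS NSD and SS HSD, and each neighbouring pair differed by less than its SD.

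For miR-181b-5p, the member with the described role in endothelial NF-kB signalling, the levels were less spread. On normal salt the SS libraries held 1483, 1393, 1180, 1344 and 1231 nRPM, and the S2Ba libraries 1399, 1587, 1239, 1314 and 1497 nRPM. The S2Bb libraries ran from 791 over a median of 1202 to 1359 nRPM and included the 3 lowest levels of the 32. On high salt the SS libraries held 1238, 2678, 1235, 1345 and 1334 nRPM, the S2Ba libraries 1499, 1315, 1356, 1385 and 1200 nRPM, and the S2Bb libraries ran from 1141 over a median of 1399 to 1532 nRPM. All 6 groups overlapped with each other. The means ran from 1154 ± 224 (SD, n = 6) in S2Bb NSD over 1326 ± 122 (SD, n = 5) in SS NSD, 1351 ± 109 (SD, n = 5) in S2Ba HSD, 1384 ± 130 (SD, n = 6) in S2Bb HSD and 1407 ± 139 (SD, n = 5) in S2Ba NSD to 1566 ± 624 (SD, n = 5) in SS HSD. Without replicate 2 the SS high-salt mean was 1288 ± 59.9 (SD, n = 4).

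miR-181c-5p was the only member whose S2Bb and S2Ba groups did not overlap on normal salt. The SS normal-salt libraries held 488, 417, 414, 439 and 239 nRPM, the S2Ba normal-salt libraries 372, 310, 271, 304 and 353 nRPM, and the S2Bb normal-salt libraries ran from 435 over a median of 514 to 596 nRPM. All 6 S2Bb libraries on normal salt were above all 5 S2Ba libraries. The lowest level, in SS normal-salt replicate 6, was in the second shallowest library and rested on 1547 reads. On high salt the SS libraries held 400, 695, 371, 365 and 377 nRPM, the S2Ba libraries 428, 262, 268, 263 and 280 nRPM, and the S2Bb libraries ran from 341 over a median of 417 to 464 nRPM. In S2Ba on high salt 1 library of 5 stood above the rest, which lay below every SS high-salt library. In order, the means were 300.1 ± 72.1 (SD, n = 5) in S2Ba HSD, 322 ± 40.4 (SD, n = 5) in S2Ba NSD, 399.6 ± 94.3 (SD, n = 5) in SS NSD, 414 ± 43.9 (SD, n = 6) in S2Bb HSD, 441.5 ± 142 (SD, n = 5) in SS HSD and 507 ± 60.9 (SD, n = 6) in S2Bb NSD. Ranges of neighbours in this order overlapped, and without replicate 2 the SS high-salt mean was 378 ± 15.4 (SD, n = 4).

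miR-181d-5p, the rarest member, was lowest in S2Ba on high salt. There the libraries held 46.3, 29.3, 38.8, 38.9 and 38.4 nRPM, against 58.8, 79.0, 41.5, 40.6 and 44.1 nRPM in SS and 46.6 to 58.6 nRPM with a median of 52.8 in S2Bb on the same diet. The 6 S2Bb high-salt libraries lay above all 5 S2Ba high-salt libraries, with a narrow margin between the nearest of them. On normal salt the SS libraries held 70.3, 55.7, 40.3, 38.7 and 50.4 nRPM, the S2Ba libraries 55.8, 36.9, 39.3, 44.4 and 62.4 nRPM, and the S2Bb libraries ran from 39.3 over a median of 52.2 to 56.0 nRPM. These 3 groups overlapped. The means were 38.4 ± 6.04 (SD, n = 5) in S2Ba HSD, 47.8 ± 10.9 (SD, n = 5) in S2Ba NSD, 50.5 ± 6.18 (SD, n = 6) in S2Bb NSD, 51.1 ± 12.8 (SD, n = 5) in SS NSD, 52.8 ± 16.4 (SD, n = 5) in SS HSD and 53.0 ± 4.56 (SD, n = 6) in S2Bb HSD, and the ranges of the upper 5 overlapped.

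By the median over the 6 groups, the members varied less within groups than the median microRNA tested. Most names tested were rarer than the members. The members were not set against names of like abundance, so the part of abundance in this was not tested. The median within-group SD of log2(value + 1) was 0.143 for miR-181b-5p, at percentile 1.45 of the 484 names tested, and 0.221 for miR-181a-5p at percentile 14.9. It was 0.243 for miR-181c-5p at percentile 23.6 and 0.274 for miR-181d-5p at percentile 35.1, against a median of 0.323 over all names tested. In some single groups a member varied more than the median name. In SS on high salt the SD was 0.527 for miR-181a-5p and 0.476 for miR-181b-5p, against 0.458. In S2Bb on normal salt these members had 0.373 and 0.304, against 0.299. miR-181c-5p had 0.304 against 0.276 in S2Ba on high salt, and miR-181d-5p 0.318 against 0.289 in S2Ba on normal salt.

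The effect of high salt on the family was examined in each strain. In limma's fit over 484 microRNAs, with a Benjamini-Hochberg adjusted p under 0.05 as a call and changes on the log2(value + 1) scale, no member was called for diet. In SS the background was 1.03% of names called, and the members' changes were 0.01 (SE 0.19) for miR-181a-5p, 0.17 (SE 0.16) for miR-181b-5p, 0.14 (SE 0.18) for miR-181c-5p and 0.03 (SE 0.18) for miR-181d-5p, with adjusted p of 0.585 to 0.992. Their median was 0.08, against -0.02 over all names. Without SS high-salt replicate 2 all 4 changed sign, to -0.22, -0.04, -0.04 and -0.12 in the same order. In S2Ba 0.826% of names were called, and the members' changes were 0.02, -0.06, -0.12 and -0.30 (SE 0.18 for the last, adjusted p = 0.606) in the same order, with a median of -0.09 against 0.01.

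In S2Bb, where 5.99% of names were called, miR-181b-5p and miR-181c-5p had estimates of opposite sign. miR-181b-5p was 0.28 higher on high salt (SE 0.15, 95% interval -0.02 to 0.59, adjusted p = 0.374) and miR-181c-5p 0.29 lower (log2 change -0.29, SE 0.16, 95% interval -0.62 to 0.04, adjusted p = 0.406). Of the 36 pairs of a high-salt and a normal-salt S2Bb library, the high-salt library was the higher one in 33 for miR-181b-5p and in 4 for miR-181c-5p. The ranges overlapped for both members. The changes of miR-181a-5p and miR-181d-5p were 0.10 and 0.07. Averaged over the 3 strains, where 13.4% of names were called, the 95% intervals were -0.17 to 0.26 for miR-181a-5p, -0.06 to 0.32 for miR-181b-5p, -0.30 to 0.11 for miR-181c-5p and -0.27 to 0.15 for miR-181d-5p.

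In limma none of the 4 members reached an unadjusted p under 0.05 in any of these 4 diet comparisons, and edgeR, DESeq2 and limma-voom called none either. Unadjusted, limma-voom passed 1 member in S2Ba, 2 in S2Bb and 1 for the average, and DESeq2 passed 1 in S2Bb. At an unadjusted p under 0.05 limma passed 18.6% of all names in SS, 11.4% in S2Ba, 15.9% in S2Bb and 27.9% for the average. The unadjusted shares over all names in DESeq2 and limma-voom were not computed, so their passes have no background here. The difference in diet response between a congenic strain and SS was tested directly as well. For S2Ba against SS no name was called (0% of 484, with 7.44% at an unadjusted p under 0.05), and the members' differences of 0.01, -0.23, -0.26 and -0.33 had adjusted p of 0.819 to 0.984. For S2Bb against SS 0.413% of names were called and 9.5% passed unadjusted, and the largest difference among the members was -0.43 for miR-181c-5p (SE 0.24, adjusted p = 0.556). No member passed unadjusted in either.

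**Figure D2:**
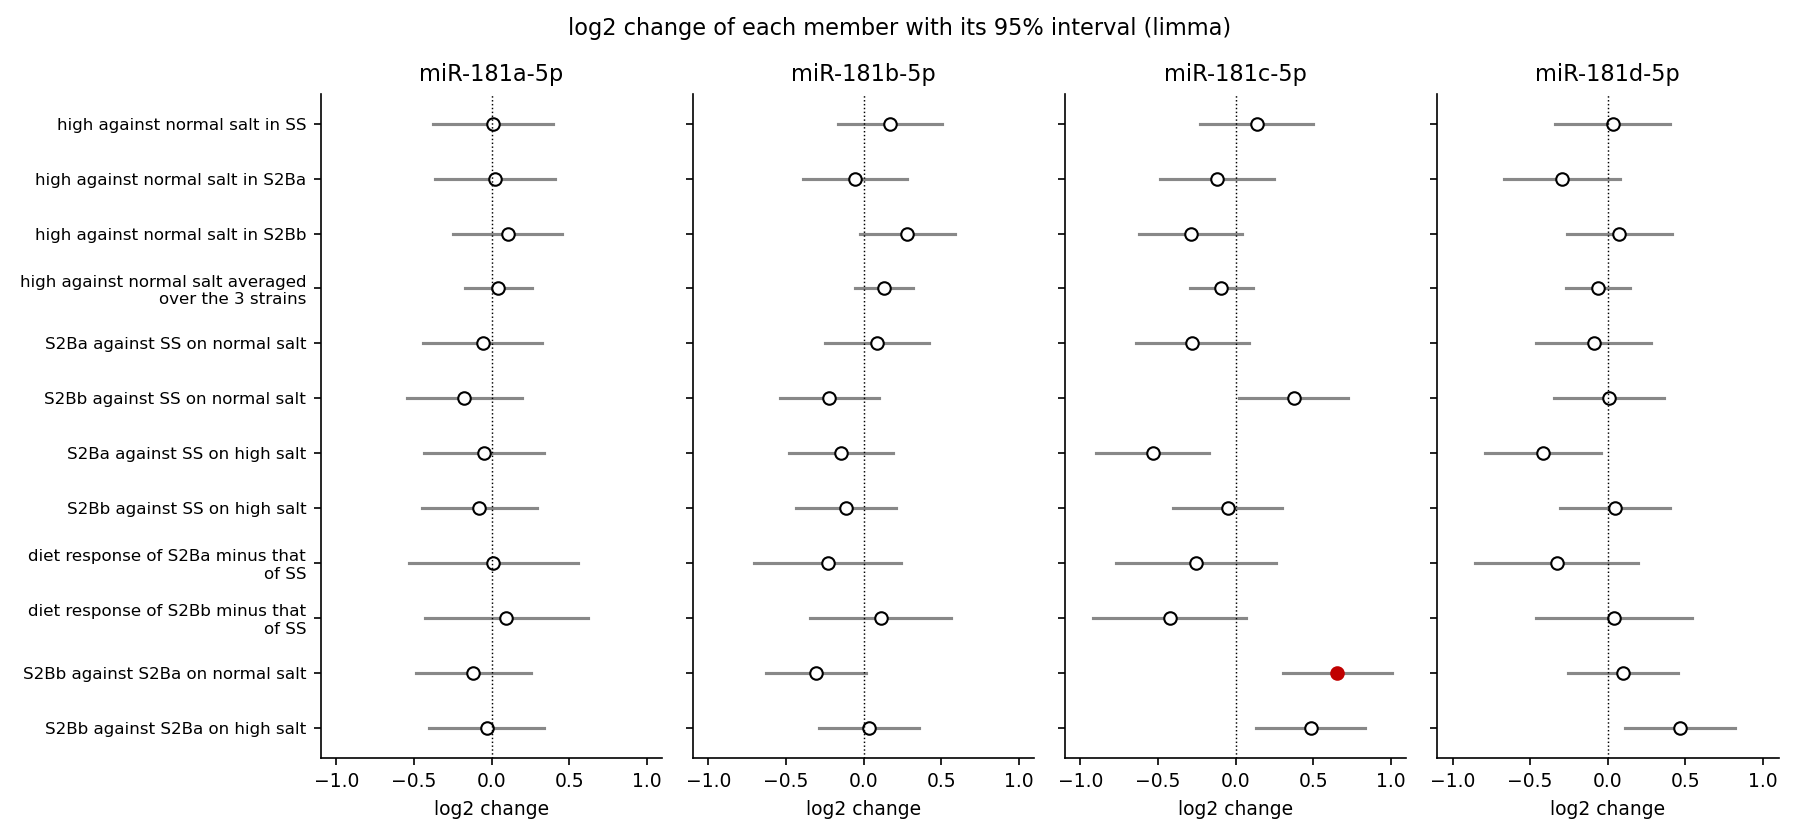
Log2 change of each member, as a difference of group means of log2(value + 1) from limma, with 95% intervals (horizontal axes), in the diet and strain comparisons. The intervals that leave out 0 belong to miR-181c-5p and miR-181d-5p in strain comparisons, such as 0.30 to 1.00 for miR-181c-5p in S2Bb against S2Ba on normal salt.

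Each congenic strain was then compared with SS on the same diet, and both comparisons share the SS libraries. limma called no member against SS. On normal salt miR-181c-5p was at -0.28 in S2Ba (SE 0.18, adjusted p = 0.543), where 0.413% of all names were called, and at 0.37 in S2Bb (SE 0.17, 95% interval 0.02 to 0.72, adjusted p = 0.397), where 0.826% were called. Without the 2 shallowest libraries the change in S2Ba was -0.45 and was called (adjusted p = 0.0449). An unadjusted p under 0.05 was reached by none of the 4 members in S2Ba, against 15.1% of names, and by miR-181c-5p alone in S2Bb, against 11%. The other members were between -0.09 and 0.08 in S2Ba and between -0.22 and 0.01 in S2Bb.

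On high salt miR-181c-5p and miR-181d-5p had the lowest estimates in S2Ba. miR-181c-5p was at -0.53 (SE 0.18, 95% interval -0.90 to -0.17, adjusted p = 0.103) and miR-181d-5p at -0.42 (SE 0.18, 95% interval -0.79 to -0.05, adjusted p = 0.220), and 4 of 5 S2Ba libraries lay below all SS libraries for each. In this comparison 0.207% of names were called and 16.9% passed unadjusted, and these 2 members were among the latter. Without SS high-salt replicate 2 the change of miR-181c-5p was -0.36 (adjusted p = 0.371) and that of miR-181d-5p -0.26 (adjusted p = 0.607), and without the high library, S2Ba high-salt replicate 1, that of miR-181c-5p was -0.67 (adjusted p = 0.0591). DESeq2 on recovered reads called miR-181c-5p (log2 fold -0.55, adjusted p = 0.0361) among 30 of 484 names. edgeR called 1 name and limma-voom 8 names, no member among them. miR-181a-5p and miR-181b-5p were at -0.05 and -0.14 (0.18 and 0.07 without SS high-salt replicate 2), and the median of the 4 members was -0.28 against 0.02 over all names. In S2Bb on high salt the members were between -0.11 and 0.05, no name was called (0% of 484), 11.6% passed unadjusted and none of the members was among them. Without SS high-salt replicate 2 these changes were 0.10 to 0.20, higher in S2Bb for all 4 members.

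The congenic strains were also set against each other, a comparison added after their values had been seen, so its tests have no independent standing. On normal salt miR-181c-5p was higher in S2Bb than in S2Ba, 507 ± 60.9 (SD, n = 6) against 322 ± 40.4 nRPM (SD, n = 5). It was the only member called, with a log2 change of 0.65 (SE 0.17, 95% interval 0.30 to 1.00, adjusted p = 0.0249), which is 1.57-fold with an interval of 1.23 to 2.01. S2Bb was higher in 30 of 30 pairs of libraries. The background was 3.51% of names called and 5.79% with groups that did not overlap, and miR-181c-5p ranked 11 of 484 by p. edgeR, DESeq2 and limma-voom called it too, with adjusted p of 0.000979 to 0.0419, among 26, 36 and 37 called names of 484.

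This call rested on narrow margins. The adjusted p rose to between 0.0514 and 0.076 when S2Ba normal-salt replicate 2, 3 or 5 or S2Bb normal-salt replicate 3 or 5 was left out, to 0.308 when libraries were scaled by total reads, which moved the median of all names by -0.145, and to 0.169 when runs of neighbouring animal numbers were treated as blocks. The log2 change was 0.59 to 0.64 without those libraries, 0.47 with total-read scaling and 0.67 with blocks. The other members did not pass in the same comparison. miR-181b-5p was at -0.31 (SE 0.16, adjusted p = 0.353), miR-181a-5p at -0.12 and miR-181d-5p at 0.10, and 1 of the 4 members against 16.1% of all names reached an unadjusted p under 0.05.

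On high salt miR-181c-5p and its cluster neighbour miR-181d-5p had similar estimates between the congenic strains. miR-181c-5p was at 0.48 (SE 0.17, 95% interval 0.13 to 0.83, adjusted p = 0.302), with S2Bb higher in 26 of 30 pairs. miR-181d-5p was at 0.47 (SE 0.17, 95% interval 0.11 to 0.82, adjusted p = 0.337), with S2Bb higher in 30 of 30 pairs, and 3.1% of all names had groups that did not overlap. limma called no name here (0% of 484, with 9.09% at an unadjusted p under 0.05, these 2 members among them). edgeR called none and DESeq2 7 names, no member among them, while limma-voom called 32 names including both members. miR-181a-5p and miR-181b-5p were at -0.03 and 0.03.

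Markers of cell types differed between the same groups, and their part in the result of miR-181c-5p was not tested. In bulk tissue, fewer cells of a type and less RNA per cell cannot be told apart. Between S2Bb and S2Ba on normal salt the sum of the 2 endothelial markers miR-126a-5p and miR-126a-3p averaged 1738 nRPM (1429 to 2691) against 3030 nRPM (2099 to 4767), and miR-126a-5p was called lower (log2 change -0.92, adjusted p = 0.0368). The sum follows miR-126a-5p, since miR-126a-3p, which was not called, averaged 274 nRPM in S2Bb and 225 nRPM in S2Ba. The sum of 4 smooth muscle markers, led by miR-143-3p and miR-145-5p, averaged 619306 nRPM (509219 to 742576) against 506915 nRPM (340943 to 606056), and miR-143-5p was called higher (log2 change 0.77, adjusted p = 0.00151). The 5 striated muscle markers, nearly all miR-133a-3p and then miR-133b-3p, summed to 629 nRPM (581 to 709) against 482 nRPM (450 to 519), without overlap, while miR-1-3p averaged 0.615 nRPM, miR-208a-3p was at 0 in 12 of 32 libraries and miR-206-3p in 28.

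The remaining lists overlapped between these 2 groups. The 4 white blood cell markers with values, led by miR-142-5p and miR-150-5p and all detected, summed to 122 nRPM (107 to 146) against 156 nRPM (128 to 195). The 3 red blood cell markers, led by miR-451-5p and miR-144-3p, averaged 18.2 nRPM in both groups (6.10 to 70.5 and 3.63 to 36.2), and the 3 fat markers, led by miR-378a-3p and miR-365-3p, 1427 nRPM (1019 to 2003) against 1276 nRPM (928 to 2257). The 5 neuronal markers, led by miR-338-3p and miR-128-3p, summed to 56.2 nRPM (42.1 to 67.2) against 63.6 nRPM (47.5 to 101), with miR-124-3p at 0 in 17 of 32 libraries and miR-138-5p called lower in S2Bb (log2 change -1.54, adjusted p = 0.0220). The means of miR-128-3p, miR-9a-5p and miR-338-3p were higher in S2Bb and not called. On the log2 scale of the fit, 2 of the 4 tested neuronal markers had positive changes. The medians of miR-338-3p were 19.8 nRPM in S2Bb and 24.3 nRPM in S2Ba. Depth also differed, with 27.2 ± 8.52 M reads (SD, n = 6) in S2Bb and 19.4 ± 5.46 M (SD, n = 5) in S2Ba. In the comparisons where no miR-181 member was called, the markers called were, for diet in S2Bb, miR-138-5p (log2 change 2.05), miR-223-3p (0.60), miR-145-5p (-0.69) and miR-133b-3p (-0.89). Over the tested markers of these lists, 3 of 4 neuronal and 3 of 4 white blood cell markers had positive changes there. So did 1 of 4 smooth muscle and 1 of 2 striated muscle markers. Unlike the called ones, miR-145-3p averaged 2669 nRPM on high and 2302 nRPM on normal salt, and miR-133a-3p 608 and 598 nRPM. For diet averaged over the strains the called markers were miR-138-5p (1.15), miR-128-3p (0.38) and miR-133b-3p (-0.54). Changes there were positive for 3 of 4 tested neuronal and 1 of 2 striated muscle markers. For S2Bb against SS on normal salt the fat marker miR-196a-5p was called (-1.79), with means of 0.0622 and 4.27 nRPM. It was at 0 in 7 of 32 libraries. The fat markers miR-378a-3p and miR-365-3p averaged 1344 and 82.3 nRPM in S2Bb against 1275 and 82.8 nRPM in SS, and neither was called.

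The make-up of the family was examined as the share of each member in the summed 5p signal, which does not depend on the scaling of a library and is described here with no test. miR-181a-5p made up 91.5% of the family on average over the 32 libraries, with a range of 89.9 to 93.5%. miR-181b-5p made up 6.36%, miR-181c-5p 1.91% and miR-181d-5p 0.235%. The share of miR-181c-5p was 2.67 ± 0.760% (SD, n = 6) in S2Bb and 1.52 ± 0.163% (SD, n = 5) in S2Ba on normal salt, and 1.98 ± 0.264% (SD, n = 6) and 1.41 ± 0.301% (SD, n = 5) on high salt. In SS it was 1.8 ± 0.313% (SD, n = 5) on normal and 1.94 ± 0.271% (SD, n = 5) on high salt. Of the 6 S2Bb normal-salt libraries 5 had a larger share than every S2Ba normal-salt library, and replicate 2 fell among them with 1.58%. The largest shares of the 32 libraries were 3.83% and 3.16%, in S2Bb normal-salt replicates 5 and 4. These libraries also had the lowest levels of miR-181a-5p, 12721 and 14349 nRPM, so a share reflects the level of miR-181a-5p as well.

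**Figure D3:**
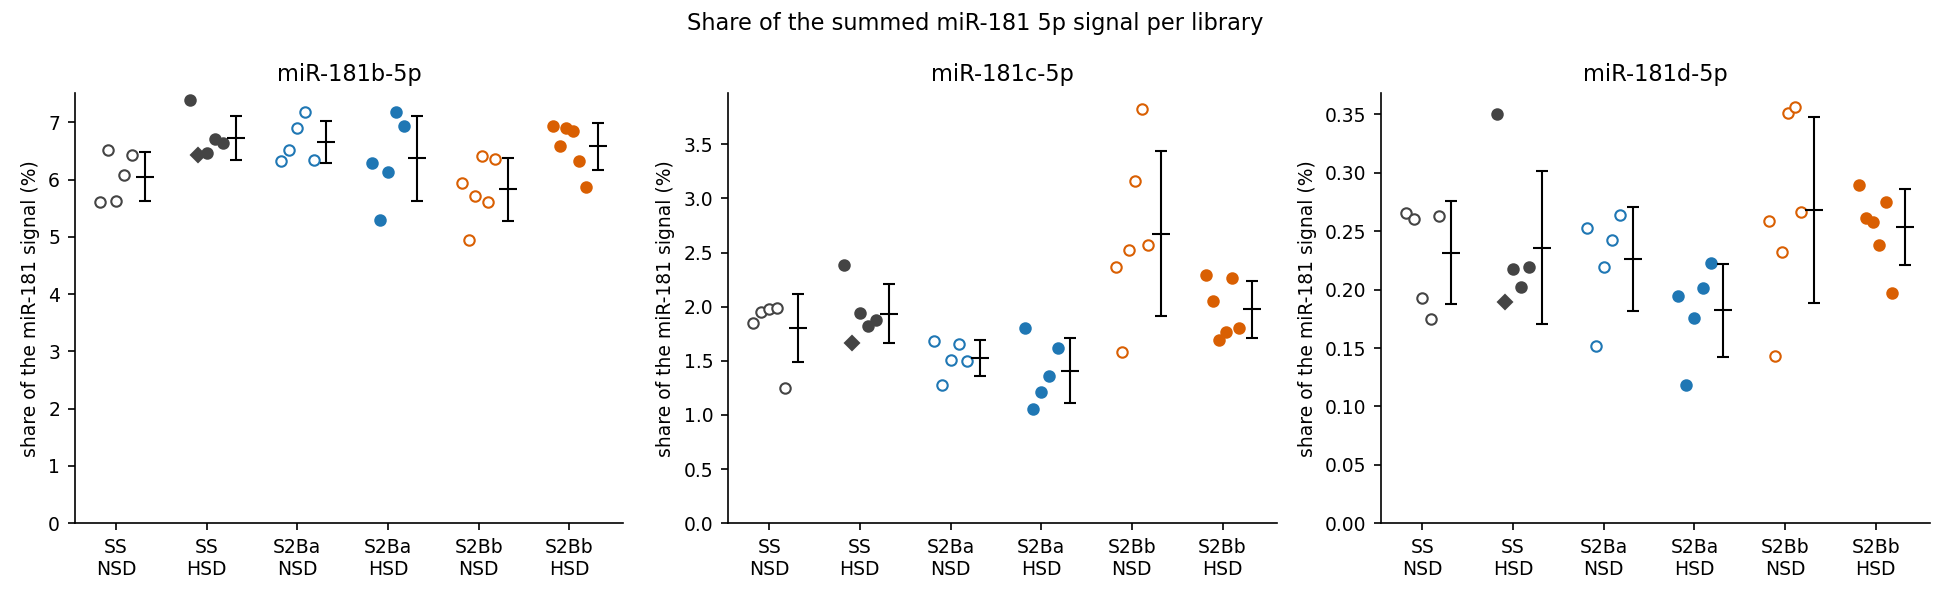
Share of miR-181b-5p, miR-181c-5p and miR-181d-5p in the summed 5p signal of the family, in percent (vertical axes from 0), per library by strain and diet with mean ± SD beside the points; symbols as in the plot of levels. The miR-181c-5p share averages 2.67% in S2Bb on normal salt and 1.41 to 1.98% in the other groups.

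SS high-salt replicate 2 had more of the whole family and not of 1 member. The family held 5.75% of its signal, against a mean of 2.16% over all libraries, yet miR-181c-5p was 1.67% of the family there, within the range of the other libraries. The ratio of miR-181a-5p to miR-181b-5p averaged 14.5 over the 32 libraries (12.2 to 18.9), and that of miR-181c-5p to miR-181d-5p averaged 8.25 (4.75 to 11.3).

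Members encoded in the same cluster varied together across libraries. Correlations of log2(value + 1) were computed for 9 pairs over 32 libraries, with p from 100000 permutations, 2-sided, and adjusted over the 9 pairs. miR-181a-5p and miR-181b-5p, which share clusters on chromosomes 3 and 13, had Pearson's r = 0.87 (adjusted permutation p = 9e-05) and Spearman's rho = 0.75 (adjusted permutation p = 9e-05), from unadjusted values of 1e-05, the smallest these permutations can give. Without the 2 libraries farthest from the median of miR-181a-5p, SS high-salt replicate 2 and S2Bb normal-salt replicate 5, r was 0.71, and with group means removed it was 0.91. miR-181c-5p and miR-181d-5p, neighbours on chromosome 19, had r = 0.64 (adjusted permutation p = 0.000315) and rho = 0.56 (adjusted permutation p = 0.00309), r = 0.63 without the 2 farthest libraries, and r = 0.60 with group means removed.

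Pairs from different clusters had lower coefficients over all libraries. Their r was 0.26 for miR-181a-5p with miR-181c-5p, 0.21 for miR-181a-5p with miR-181d-5p, 0.15 for miR-181b-5p with miR-181c-5p and 0.33 for miR-181b-5p with miR-181d-5p, and the adjusted permutation p was 0.1 to 0.416. Without the 2 farthest libraries these 4 lay between -0.07 and 0.16. With group means removed they were 0.51, 0.27, 0.53 and 0.45, and without the 2 farthest libraries as well 0.36, 0.01, 0.42 and 0.28. All members share their library's depth and scaling, whose part in these correlations was not tested.

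**Figure D4:**
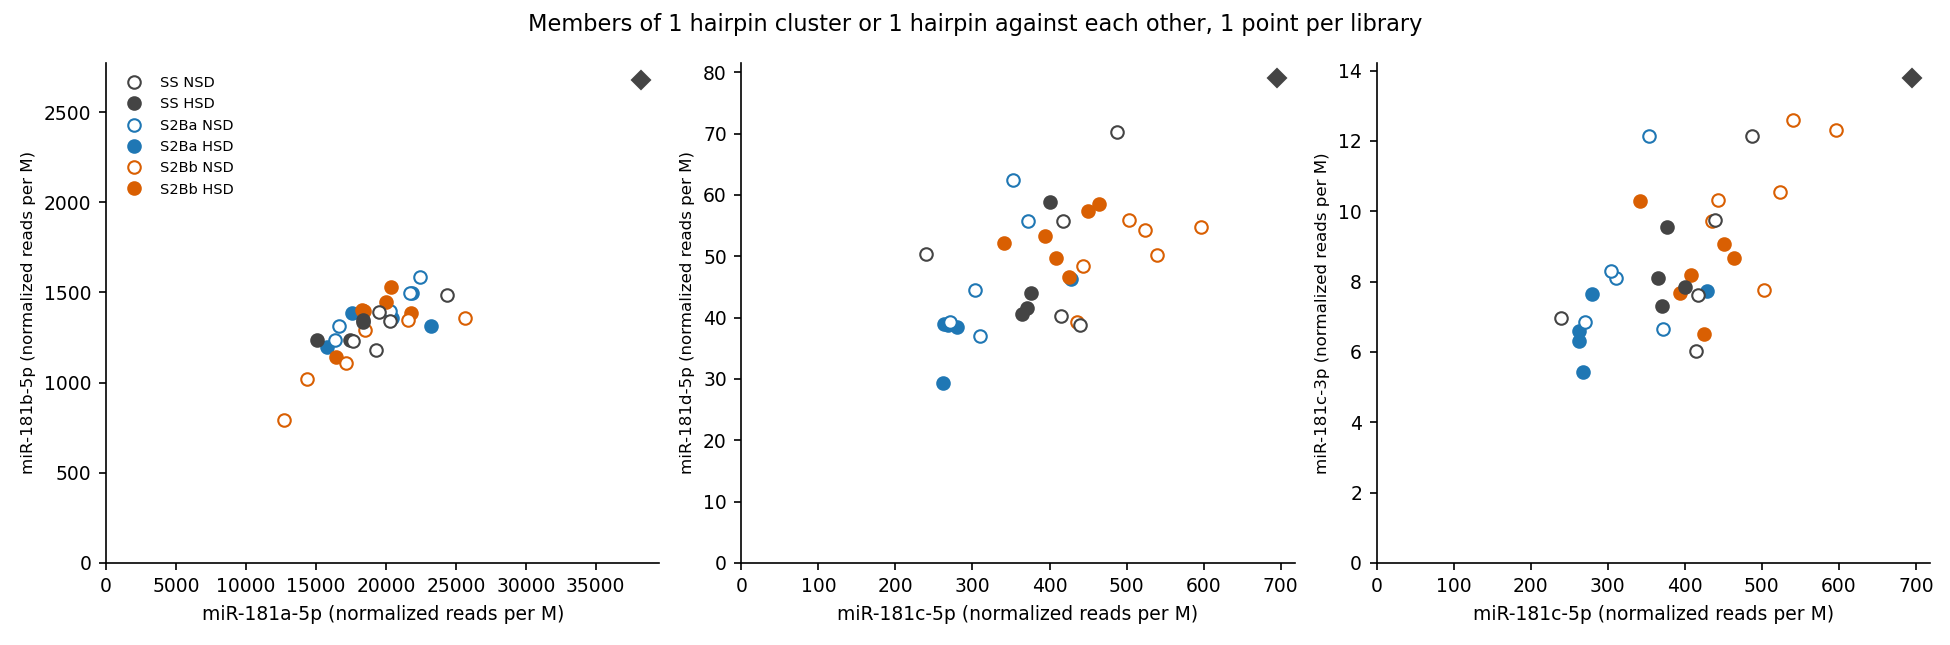
Levels of 2 microRNAs against each other in normalized reads per M reads, 1 point per library, for miR-181b-5p over miR-181a-5p, miR-181d-5p over miR-181c-5p and miR-181c-3p over miR-181c-5p; symbols as in the plot of levels. Pearson's r of log2(value + 1) is 0.87, 0.64 and 0.67, and the diamond, SS high-salt replicate 2, is highest on both axes in each.

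The opposite arms of the hairpins gave a second readout of the same precursors. Of 6 opposite arms 4 passed the filter, and each was far below its 5p partner. miR-181a-2-3p averaged 23.2 nRPM and miR-181a-1-3p 21.2 nRPM, so that miR-181a-5p was 449 times their sum on average, and the chromosome 13 arm made up 48.0% of the sum (37.9 to 68.1%). miR-181c-3p averaged 8.71 nRPM and miR-181b-2-3p 1.06 nRPM. miR-181b-1-3p, at 0.231 nRPM, and miR-181d-3p, at 0 in 26 of 32 libraries, were not tested. The 3p arms of the 2 miR-181a hairpins differ in sequence, unlike their 5p arms, so each reports on 1 locus. They are printed with miR-181c-3p from RefSeq on GRCr8, 5′ to 3′, with bases 2 to 8 in capitals.
miR-181a-1-3p: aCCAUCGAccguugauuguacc
miR-181a-2-3p: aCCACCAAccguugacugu
miR-181c-3p: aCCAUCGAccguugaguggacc

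The 3p arm of miR-181c had estimates of the same sign as its 5p arm between the congenic strains, with wider overlap. miR-181c-3p averaged 10.5 ± 1.78 nRPM (SD, n = 6) in S2Bb and 8.41 ± 2.21 nRPM (SD, n = 5) in S2Ba on normal salt, and the ranges of 7.76 to 12.6 and 6.65 to 12.1 nRPM overlapped. Its log2 change was 0.31 (SE 0.18, 95% interval -0.05 to 0.67, adjusted p = 0.386). The other tested arms had estimates of opposite sign to their 5p members there. miR-181b-2-3p was at 0.38 (SE 0.16, adjusted p = 0.213) and miR-181b-5p at -0.31. miR-181a-2-3p was at 0.36 (SE 0.20, adjusted p = 0.381) and miR-181a-1-3p at 0.05, with miR-181a-5p at -0.12. S2Bb was higher in 28 of 30 pairs of libraries for miR-181b-2-3p, in 26 for miR-181a-2-3p and in 24 for miR-181c-3p. In S2Ba against SS on high salt miR-181c-3p was at -0.39 (SE 0.19, adjusted p = 0.272), beside -0.59 (SE 0.21, adjusted p = 0.130) for miR-181a-2-3p. No opposite arm was called in any of the 12 comparisons.

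Across libraries miR-181c-3p followed miR-181c-5p with r = 0.67 (adjusted permutation p = 0.00018) and rho = 0.63 (adjusted permutation p = 0.00054), r = 0.61 without the 2 farthest libraries. For this pair r fell to 0.52 with group means removed, and to 0.38 without the 2 farthest libraries as well. miR-181a-1-3p followed miR-181a-5p with r = 0.64 (adjusted permutation p = 0.000315), rho = 0.51 (adjusted permutation p = 0.00659) and r = 0.59 without the 2 farthest libraries. For miR-181a-2-3p r was 0.56 (adjusted permutation p = 0.00373) but rho was 0.35 (adjusted permutation p = 0.0903), and r was 0.33 without the 2 farthest libraries. With group means removed its r was 0.70, and 0.54 without the same 2 libraries. The ratio of miR-181c-5p to miR-181c-3p averaged 46.8 (29.1 to 68.8).

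The microRNAs outside the family with the most similar pattern were sought among 147 miRBase names with a mean of at least 10 nRPM, by Pearson's r over 32 libraries, as a description. For miR-181a-5p they were miR-205 (r = 0.69), miR-328a-3p (0.59) and miR-125a-5p (0.57), and for miR-181b-5p miR-205 (0.69), miR-328a-3p (0.65) and miR-541-5p (0.61). Without SS high-salt replicate 2 the values for miR-328a-3p were 0.08 and 0.09, those for miR-125a-5p and miR-541-5p were 0.19 and 0.39, and those for miR-205 were 0.52 and 0.51. For miR-181c-5p they were miR-100-5p (0.68), miR-210-3p (0.65) and miR-133a-3p (0.61), and without that library 0.67, 0.63 and 0.50. For miR-181d-5p they were miR-151-3p (0.63), miR-28-3p (0.59) and miR-351-5p (0.57), and without that library 0.51, 0.55 and 0.44. Over the other 31 libraries the most similar names were miR-25-3p (0.54) for miR-181a-5p, miR-205 for miR-181b-5p, miR-101b-3p (0.70) for miR-181c-5p and miR-28-3p for miR-181d-5p.

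The family was set beside 16 other tested microRNAs listed for roles in NF-kB signalling or adhesion molecules of the vessel wall. The most abundant were miR-10a-5p, which targets upstream regulators of NF-kB in endothelium, at 74617 nRPM, and miR-125b-5p at 13112 nRPM, so miR-181a-5p lay between them. For diet, none of the 16 was called in SS (1.03% of all names) and 1 in S2Ba (0.826% of all names), miR-132-3p, which is known in endothelium for its target p120RasGAP, with 2.34 ± 0.945 nRPM (SD, n = 5) on normal and 11.2 ± 7.55 nRPM (SD, n = 5) on high salt (log2 change 1.70, adjusted p = 0.0147). In S2Bb, where 5.99% of all names were called, 3 were called higher and 1 lower. miR-132-3p changed by 1.48 (adjusted p = 0.00438), miR-146b-5p, a relative of miR-146a that targets the adaptors Traf6 and Irak1, by 0.88 (adjusted p = 0.00245), miR-223-3p of myeloid cells by 0.60 (adjusted p = 0.0376) and miR-10a-5p by -0.48 (adjusted p = 0.0382).

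Averaged over the strains, where 13.4% of all names were called, 4 of the 16 were called higher and none lower. They were miR-132-3p (1.33, adjusted p = 8.2e-05), miR-146b-5p (0.55, adjusted p = 0.000689), miR-17-5p (0.35, adjusted p = 0.0328) and miR-21-5p (0.40, adjusted p = 0.0432). Against SS, and in the differences of diet response, none was called. In S2Bb against S2Ba on normal salt, where 3.51% of all names and miR-181c-5p were called, miR-221-3p, which targets Icam1 in endothelium, was called higher (0.58, adjusted p = 0.0316), and the endothelial miR-126a-5p (-0.92, adjusted p = 0.0368) and the NF-kB induced miR-146a-5p (-0.99, adjusted p = 0.0205) were called lower. miR-146a-5p averaged 127 ± 40.9 nRPM (SD, n = 6) in S2Bb and 248 ± 46.3 nRPM (SD, n = 5) in S2Ba there. On high salt none of the 16 was called between the congenic strains.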

How the data were processed

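Small RNAs of 36 rat aortas were sequenced as single-end reads of 51 bp, with RNA of an integrity number of at least 8 and 1 microgram per library, per the labels' protocols. The table deposited by the authors gives, for 835 names in 34 columns, a normalized signal. Tools listed in the submitters' processing notes, without their roles, are edgeR 3.6.8, STAR 2.3.1, bcl2fastq 1.8.4, R 3.2.3 and FastQC, and the genome build, the annotation and the normalization were unknown here. Dividing a column by its smallest step gave whole reads for 100% of values (tolerance 1e-06). Replicate 1 of SS and replicate 4 of S2Ba on normal salt have identical values, so 1 label must be wrong and neither was used. Replicate 3 of SS and replicate 2 of S2Ba on high salt were not analysed here.

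The limma 3.58.1 package (R 4.3.3, trend in the variance) fitted log2(value + 1) in all 6 groups at once. It took names that reached 1 nRPM in 5 or more libraries, 484 names, 275 from miRBase and 209 of the form miR-n, with Benjamini-Hochberg adjustment over all. The scale understates changes of rare names. Of 12 comparisons, 2 between the congenic strains were added after values were seen. Alternatives were other scalings, pseudocounts and filters, edgeR 4.0.16, DESeq2 1.42.0 and limma-voom on recovered reads, other sample sets, animal-number blocks and leaving out each library. The fit was tested on simulated data. The members and lists were chosen with earlier results of these data known. Named were the members, their opposite arms, the 3 most similar names for each, and in each list the 2 most abundant and every called name. The NF-kB list had 17 names, of which 16 were analysed, and summed levels of the 7 marker lists are given for the comparison in which a member was called.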

Additional observations from a re-analysis of the deposited data

Results flagged for a closer look

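Of 72 sets of libraries (a microRNA or a share in 1 group), 11 contained a library far from the others of its group. Chance alone would give about 1 in 20 for independent sets. These sets share libraries, so their number cannot be set against that rate. SS high-salt replicate 2 accounted for 5 of the 11 sets. It held 38263 nRPM of miR-181a-5p against 15073 to 18363 in the other 4 libraries, 2678 nRPM of miR-181b-5p against 1235 to 1345, and 695 nRPM of miR-181c-5p against 365 to 400. Its opposite arms were high too, with 32.9 nRPM of miR-181a-1-3p against 17.9 to 21 and 51.4 nRPM of miR-181a-2-3p against 19.8 to 23.7. This library has the fewest reads, 2.31 M, and the part of depth in these levels was not tested.

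Single values stood apart in 3 other libraries. miR-181b-5p was 1141 nRPM in S2Bb high-salt replicate 5 against 1389 to 1532, miR-181c-5p was 428 nRPM in S2Ba high-salt replicate 1 against 262 to 280, and miR-181a-2-3p was 26.6 nRPM in S2Ba normal-salt replicate 2 against 17 to 19.2. Among the shares of the family, miR-181a-5p made up 89.9% in SS high-salt replicate 1 against 91.3 to 91.7%, and miR-181d-5p 0.351% there against 0.189 to 0.219%. miR-181c-5p made up 1.25% in SS normal-salt replicate 6 against 1.85 to 1.98%.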

How the results depend on the processing

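Over 12 comparisons, 15 other settings and 32 fits that each left out 1 library, the number of members called was the same as reported in 550 cases and differed in 13. Of the log2 changes of the members, 2123 kept their direction and side of the threshold, 115 changed sign, 8 lost a call and 6 gained one. The changes of sign below were all of uncalled values, and their cause was not tested. The direction of miR-181c-5p in S2Bb against S2Ba held under all settings, on either diet. Depth limits miR-181d-5p most. No paired analysis was possible because the labels give each animal its own number and pair no samples. The fit of the compared groups alone has no value for the average over strains, which uses all groups.

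Between S2Bb and S2Ba on normal salt, 0 members were called under total-read scaling (miR-181c-5p at 0.47, adjusted p = 0.308), under scaling to total reads without miR-143-3p (0.61, adjusted p = 0.0518) and with runs of animal numbers as blocks (0.67, adjusted p = 0.169). Leaving out single libraries gave 0 to 1 members. Over all settings the adjusted p of miR-181c-5p there was 0.00051 to 0.308. Under total-read scaling the median of all names moved by -0.145 there, and over all comparisons it moved by -0.163 to 0.166, and by -0.0384 to 0.156 without miR-143-3p. On high salt limma-voom called 2 members (miR-181c-5p at 0.50 and miR-181d-5p at 0.46), and the fit without the 2 shallowest libraries, added after seeing the data, called 1 (miR-181c-5p at 0.48, adjusted p = 0.0343). That fit also called 1 member for diet averaged over the strains (miR-181c-5p at -0.21, adjusted p = 0.0415) and 1 for S2Ba against SS on normal salt (miR-181c-5p at -0.45, adjusted p = 0.0449), and DESeq2 called 1 for S2Ba against SS on high salt (miR-181c-5p, whose adjusted p there was 0.0361 to 0.411 over all settings).

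With limma-voom the values that changed sign were for diet in SS -0.11 for miR-181a-5p, -0.072 for miR-181c-5p and -0.090 for miR-181d-5p, for diet in S2Ba -0.018 for miR-181a-5p, for diet averaged over the strains -0.014 for miR-181a-5p, for S2Ba against SS on high salt 0.062 for miR-181a-5p, for S2Bb against SS on high salt 0.075 for miR-181a-5p, 0.053 for miR-181b-5p and 0.094 for miR-181c-5p, for S2Bb against S2Ba on high salt 0.013 for miR-181a-5p. Without the 2 shallowest libraries they were for diet in SS -0.27 for miR-181a-5p, -0.064 for miR-181b-5p, -0.21 for miR-181c-5p and -0.12 for miR-181d-5p, for diet averaged over the strains -0.049 for miR-181a-5p, for S2Ba against SS on high salt 0.18 for miR-181a-5p and 0.066 for miR-181b-5p, for S2Bb against SS on high salt 0.15 for miR-181a-5p, 0.10 for miR-181b-5p and 0.12 for miR-181c-5p, for the diet response of S2Ba minus that of SS 0.0072 for miR-181b-5p and 0.095 for miR-181c-5p. With DESeq2 they were for diet in SS -0.0095 for miR-181d-5p, for diet in S2Ba -0.0016 for miR-181a-5p, for S2Bb against SS on normal salt -0.017 for miR-181d-5p, for the diet response of S2Ba minus that of SS -0.054 for miR-181a-5p, for the diet response of S2Bb minus that of SS -0.030 for miR-181a-5p. With TMM scaling they were for diet in S2Ba -0.0015 for miR-181a-5p, for S2Ba against SS on normal salt 0.011 for miR-181a-5p, for the diet response of S2Ba minus that of SS -0.056 for miR-181a-5p, for the diet response of S2Bb minus that of SS -0.015 for miR-181d-5p. Scaled to total reads without miR-143-3p they were for diet in S2Ba 0.018 for miR-181b-5p, for diet averaged over the strains 0.019 for miR-181c-5p and 0.046 for miR-181d-5p, for S2Ba against SS on normal salt 0.13 for miR-181a-5p and 0.092 for miR-181d-5p, for S2Ba against SS on high salt 0.095 for miR-181a-5p, for S2Bb against SS on high salt 0.082 for miR-181a-5p, 0.049 for miR-181b-5p and 0.11 for miR-181c-5p, for the diet response of S2Ba minus that of SS -0.031 for miR-181a-5p. Scaled to total reads they were for diet averaged over the strains 0.015 for miR-181c-5p and 0.043 for miR-181d-5p, for S2Ba against SS on normal salt 0.16 for miR-181a-5p and 0.12 for miR-181d-5p, for the diet response of S2Ba minus that of SS -0.19 for miR-181a-5p, for the diet response of S2Bb minus that of SS -0.026 for miR-181d-5p, for S2Bb against S2Ba on normal salt -0.083 for miR-181d-5p, for S2Bb against S2Ba on high salt -0.019 for miR-181b-5p. With edgeR they were for S2Ba against SS on normal salt 0.007 for miR-181a-5p, for S2Bb against SS on high salt -0.011 for miR-181d-5p, for the diet response of S2Ba minus that of SS -0.14 for miR-181a-5p, for the diet response of S2Bb minus that of SS -0.083 for miR-181a-5p, -0.043 for miR-181b-5p and -0.019 for miR-181d-5p. With the identical library counted as SS they were for S2Bb against SS on normal salt -0.0001 for miR-181d-5p, for the diet response of S2Ba minus that of SS -0.0032 for miR-181a-5p. With runs of animal numbers as blocks they were for S2Bb against SS on high salt -0.026 for miR-181d-5p, for the diet response of S2Ba minus that of SS -0.003 for miR-181a-5p, for the diet response of S2Bb minus that of SS -0.051 for miR-181d-5p.

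Where leaving out 1 library changed a sign, the range over the 32 fits is given. For diet in SS it was -0.22 to 0.11 for miR-181a-5p, -0.038 to 0.24 for miR-181b-5p, -0.041 to 0.22 for miR-181c-5p and -0.12 to 0.15 for miR-181d-5p. For diet in S2Ba it was -0.042 to 0.10 for miR-181a-5p. For diet averaged over the strains it was -0.033 to 0.079 for miR-181a-5p. For S2Ba against SS on normal salt it was -0.11 to 0.011 for miR-181a-5p and -0.19 to 0.032 for miR-181d-5p. For S2Bb against SS on normal salt it was -0.082 to 0.13 for miR-181d-5p. For S2Ba against SS on high salt it was -0.15 to 0.18 for miR-181a-5p and -0.21 to 0.066 for miR-181b-5p. For S2Bb against SS on high salt it was -0.19 to 0.15 for miR-181a-5p, -0.18 to 0.10 for miR-181b-5p, -0.11 to 0.12 for miR-181c-5p and -0.033 to 0.20 for miR-181d-5p. For the diet response of S2Ba minus that of SS it was -0.095 to 0.24 for miR-181a-5p. For the diet response of S2Bb minus that of SS it was -0.011 to 0.33 for miR-181a-5p and -0.081 to 0.20 for miR-181d-5p. For S2Bb against S2Ba on high salt it was -0.11 to 0.029 for miR-181a-5p and -0.0088 to 0.087 for miR-181b-5p.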
